A study of Homo sapiens with 12 samples.

Results

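Expression of 37 genes of the G2 phase and of mitosis was followed with and without salinomycin in HMLE cells, which are immortalised cells of the human mammary epithelium. The 37 genes were taken by name from all 26364 genes of the deposited tables: mitotic kinases, kinesins, and genes of the kinetochore, the spindle and anaphase. Libraries of 4 groups were compared, with 3 biological replicates each: HMLE-Twist cells with 0.2 uM salinomycin, a potassium ionophore, for 24 h; HMLE-Twist cells with the DMSO mock for the same time; HMLE-pBp cells with salinomycin; and HMLE-pBp cells with the mock. HMLE-Twist cells express TWIST1, a transcription factor that drives the epithelial to mesenchymal transition (EMT), and are labelled EMT. The HMLE-pBp line has only the control vector and is labelled non-EMT. All groups share the HMLE background, which was made by immortalising mammary epithelial cells with telomerase and the early region of the SV40 virus. Whether the 3 replicates of a group came from separate cultures is not stated, so the p-values measure the spread between these samples.

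Cells that have copied their DNA enter mitosis when CDK1 with its cyclins is switched on, with the help of CDC25 phosphatases, Polo-like kinase and Aurora kinases. Kinetochores then tie the chromosomes to spindle microtubules, kinesin motors shape the spindle, and a checkpoint holds back the anaphase-promoting complex until all chromosomes are attached. Most of these genes are transcribed late in the cell cycle under the DREAM and MuvB complexes, B-MYB and FOXM1 at the CHR element of their promoters and NF-Y at CCAAT boxes, and their RNA is most abundant in G2 and mitosis.

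Levels are given in FPKM (fragments scaled to gene length and library size), rebuilt on one scale for all 12 libraries from 17.9 to 26.7 megareads recovered per library. Of the 37 genes, 36 were tested among 11892 genes, and each comparison is a limma contrast on log2(FPKM + 1), called at an adjusted p under 0.05. Reads of NCAPG, a condensin subunit, could not be settled, so it was not tested. Exons of BUB1B, CDC25C, CDCA3, CENPA, FOXM1, KIF20A, NCAPG, NUSAP1, PLK1 and PRC1 overlap those of another protein-coding gene, whose reads may be included. The 36 genes lay between 7.83 FPKM (KIF14) and 175.3 FPKM (CDC20), and none had fewer than 410 reads in any library (CENPA). Over all genes the lines parted on the first principal component (86.4% of the variance) and the treatments on the second (5.19%). Summed FPKM of 8 epithelial markers lay at 2.1 to 3.29 in HMLE-Twist salinomycin, 3.45 to 7.58 in HMLE-Twist mock, 2120 to 2290 in HMLE-pBp salinomycin and 2460 to 2830 in HMLE-pBp mock libraries. For 6 mesenchymal markers they lay at 4570 to 5360, 3380 to 4260, 522 to 605 and 475 to 504 in the same order. The leukocyte markers PTPRC and CD3E were at or near 0 in all groups, and CD14 reached 29.1 FPKM in HMLE-pBp mock libraries. Of 4 endothelial markers, PECAM1, VWF and CDH5 reached at most 0.128, 0.083 and 0.012 FPKM in any library. The fourth, KDR, averaged 0.967 and 0.826 FPKM in HMLE-Twist salinomycin and mock libraries, against 0.00547 and 0.0244 FPKM in those of HMLE-pBp. The part of these markers in the results was not tested.

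**Figure D1:**
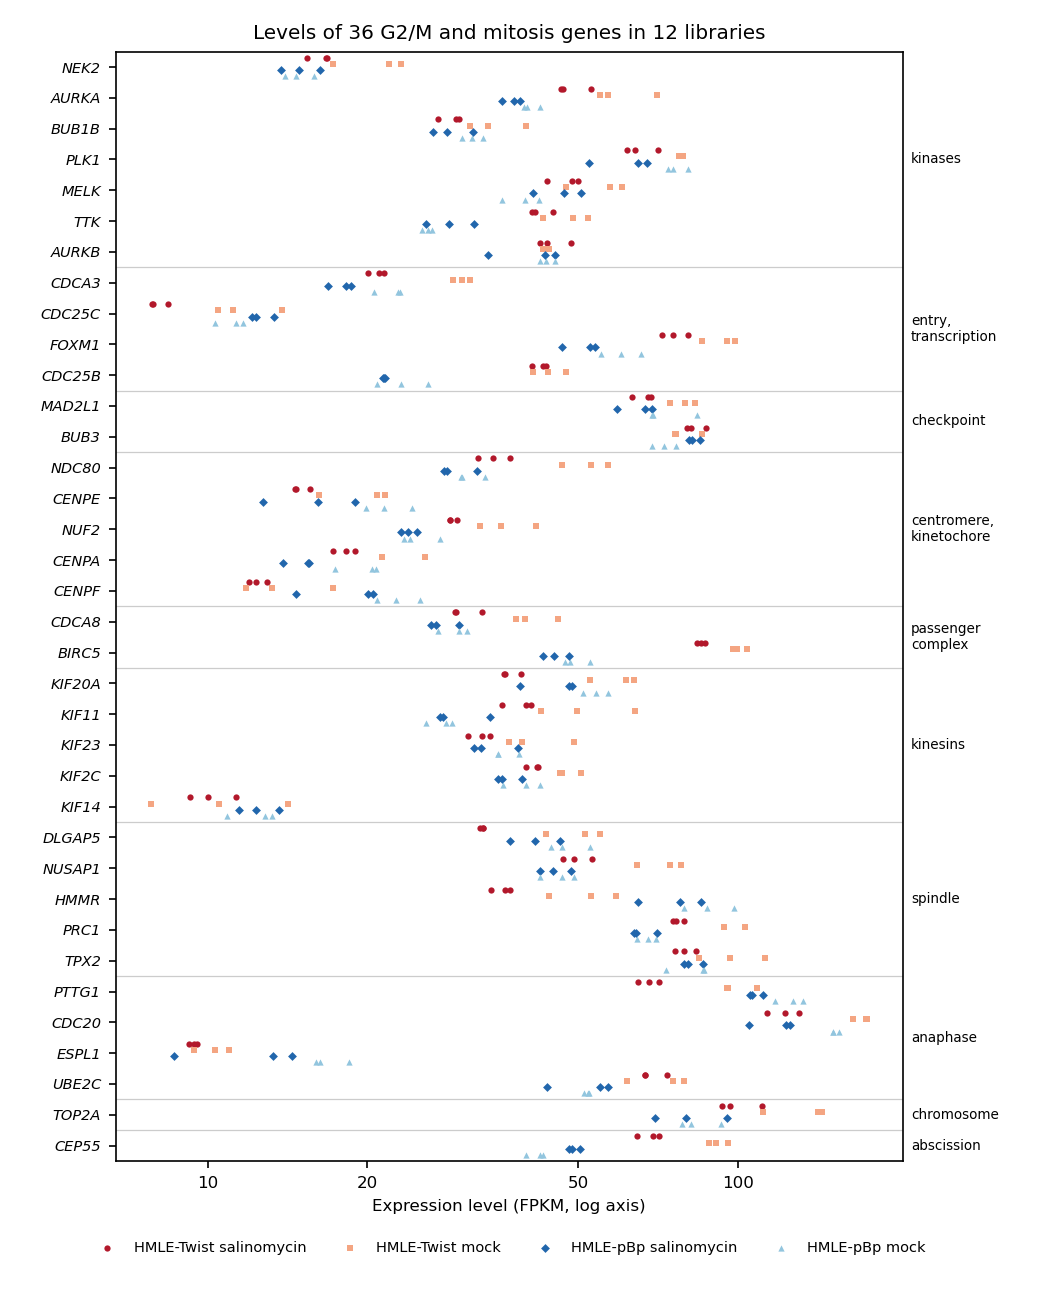
FPKM on a log axis (x) of each of the 36 tested genes (rows, grouped by role) in every library; each point is 1 library, with colour and marker giving the group. In most rows the 3 HMLE-Twist mock libraries lie to the right of the 3 HMLE-Twist salinomycin libraries. CDC20 lies farthest right in all groups but HMLE-pBp salinomycin, where its points overlap those of PTTG1.

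Salinomycin lowered 21 of the 36 genes in HMLE-Twist cells and raised 0, where 13.6% of all tested genes passed as lower and 12.8% as higher. The number higher was 0 by limma on voom weights too, and 0 at an unadjusted p under 0.05, where 27 were lower. The median log2 fold change of the 36 genes was -0.32, against -0.01 over all genes tested, and 34 of the 36 values were negative. In 27 of the 36 genes all 3 salinomycin libraries lay below all 3 mock libraries, which held for 21.2% of all tested genes. In bulk samples, fewer cells in G2 and mitosis and less of these RNAs per cell cannot be told apart. With the replicate number as a block within each line, 27 genes passed as lower (20.9% of all genes, with 19.7% higher): the further 6 were BUB1B, CENPE, KIF2C, MAD2L1, MELK and TPX2. The count was 13 without HMLE-Twist salinomycin replicate 2 (10.2% of all genes) and 12 without replicate 3 of that group (8.84%). Of the 21 calls, 12 held under all alternatives that were run. The other 9 calls (AURKA, BIRC5, CENPA, FOXM1, KIF11, KIF23, NEK2, NUF2 and TOP2A) ended when libraries were scaled to the same sum (TPM).

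**Figure D2:**
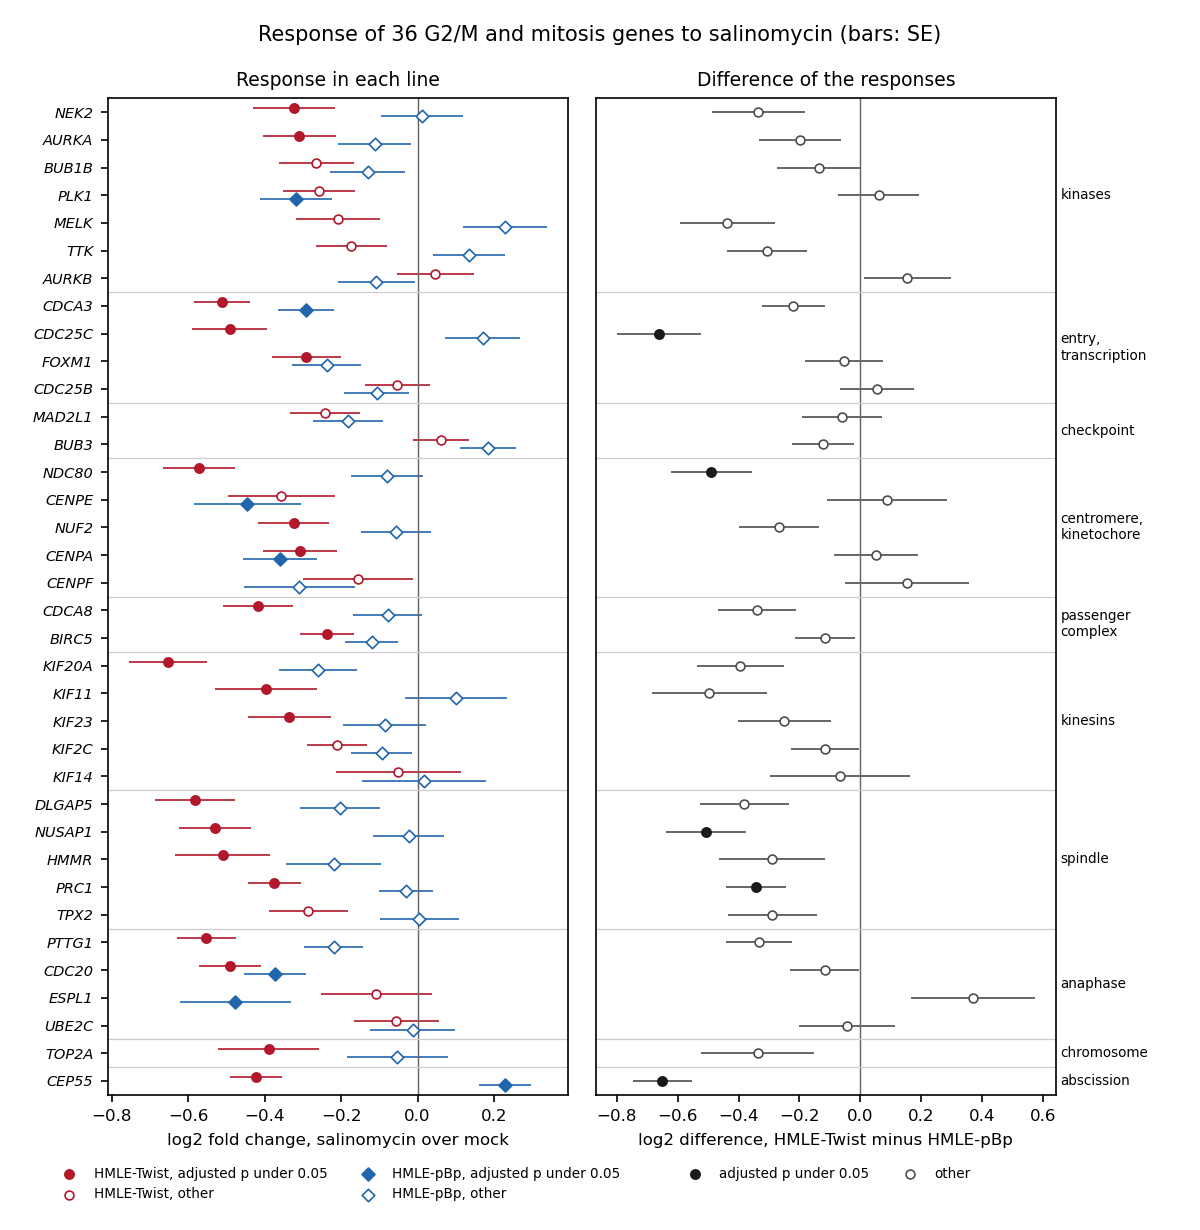
Left, log2 fold change of salinomycin over mock for each of the 36 genes (rows) in HMLE-Twist (circles) and HMLE-pBp (diamonds); right, the difference of these responses; bars are SE and filled symbols passed at adjusted p under 0.05. The 21 filled circles all lie left of 0, against 6 filled diamonds left and 1 (CEP55) right of 0, and 5 differences passed, all below 0.

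A few genes mark the range of these responses. KIF20A, a kinesin needed for the end of cell division, had the largest fall in HMLE-Twist cells, with 36.3, 39.1 and 36.3 FPKM in salinomycin libraries against 61.6, 63.6 and 52.6 FPKM in mock libraries. The groups did not overlap, and the log2 fold change was -0.65 ± 0.10 (SE; adjusted p = 0.000752). CDC20, the activator of the anaphase-promoting complex, was the most abundant of the genes and fell in both lines. It had 130.5, 113 and 123 FPKM in HMLE-Twist salinomycin libraries against 165, 175 and 175 FPKM in HMLE-Twist mock libraries, a log2 fold change of -0.49 ± 0.08 (adjusted p = 0.00108). AURKB, the kinase of the chromosomal passenger complex, had 48.5, 43.6 and 42.3 FPKM with salinomycin against 42.9, 44.1 and 42.9 FPKM with mock in HMLE-Twist cells, and the groups overlapped (0.05 ± 0.10, adjusted p = 0.791). CEP55, which severs the last bridge between daughter cells by recruiting the ESCRT machinery, moved in opposite directions in the lines, as described below.

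Promoter windows of these 4 genes are shown because they hold different sets of the elements that late cell cycle genes share. They are the RefSeq windows of GRCh38.p14, from 250 bases before to 50 bases after the gene start, read 5′ to 3′ on the strand of the gene. Capitals mark the CHR element (TTTGAA or TTCGAA) and the CCAAT box (CCAAT), each found on either strand, so that TTCAAA and ATTGG are the reverse complements of TTTGAA and CCAAT. KIF20A lies at chr5:138178862-138179161 on the plus strand, CDC20 at chr1:43358731-43359030 on the plus strand, CEP55 at chr10:93496362-93496661 on the plus strand, and AURKB at chr17:8210176-8210475 on the minus strand.
KIF20A: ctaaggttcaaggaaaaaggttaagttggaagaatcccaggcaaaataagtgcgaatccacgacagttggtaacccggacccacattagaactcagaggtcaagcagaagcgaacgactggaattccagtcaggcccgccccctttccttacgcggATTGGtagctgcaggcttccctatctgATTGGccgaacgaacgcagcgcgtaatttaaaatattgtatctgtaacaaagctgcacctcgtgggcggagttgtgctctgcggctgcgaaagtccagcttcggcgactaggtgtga
CDC20: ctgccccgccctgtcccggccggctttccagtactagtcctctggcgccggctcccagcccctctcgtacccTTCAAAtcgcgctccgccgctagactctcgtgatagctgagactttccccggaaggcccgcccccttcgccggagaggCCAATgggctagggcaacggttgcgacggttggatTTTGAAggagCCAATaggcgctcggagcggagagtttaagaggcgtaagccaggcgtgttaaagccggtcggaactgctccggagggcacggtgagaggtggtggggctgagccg
CEP55: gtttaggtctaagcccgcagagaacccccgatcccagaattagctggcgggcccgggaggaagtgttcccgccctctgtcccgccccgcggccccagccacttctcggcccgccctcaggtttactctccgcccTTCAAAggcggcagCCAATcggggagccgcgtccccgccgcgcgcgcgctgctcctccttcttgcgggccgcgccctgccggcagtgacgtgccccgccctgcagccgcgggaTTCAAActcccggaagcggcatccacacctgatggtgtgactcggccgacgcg
AURKB: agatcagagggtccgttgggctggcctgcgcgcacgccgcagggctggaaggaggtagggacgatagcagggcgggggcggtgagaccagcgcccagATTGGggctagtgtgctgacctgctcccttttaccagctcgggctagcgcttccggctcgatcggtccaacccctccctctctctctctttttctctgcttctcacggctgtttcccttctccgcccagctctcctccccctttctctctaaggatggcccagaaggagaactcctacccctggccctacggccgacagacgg
The KIF20A window held 2 CCAAT boxes and no exact CHR element, and CDC20 held 2 of each. CEP55 held 2 CHR elements and 1 CCAAT box, and AURKB held 1 CCAAT box. The AURKB window has an ATG at the gene start with no stop codon in frame after it, so it may not hold the promoter. Of the 37 genes, 30 had a window, 4 of them more than 1, and all windows compared were of the same length. A CHR element was found for 23 of these 30 genes (76.7%), against 19.54% of all 27305 genes and 16.4% of all 35116 windows. A CCAAT box was also found for 23 of the 30 (76.7%), against 39.72% of all genes and 34.6% of all windows. Both were found for 19 genes (63.3%), against 7.848% of all genes and 6.38% of all windows. The E2F site (TTTGGCGC or TTTCGCGC) was found for 1 of the 30 (3.33%), against 1.399% of all genes and 1.148% of all windows. Of the 18 genes with a window that fell in HMLE-Twist cells, 15 held a CHR element and 16 a CCAAT box. At least 2 CCAAT boxes were held by 11 of the 18. Among the 11 other tested genes with a window, 7 held a CHR element, 7 a CCAAT box and 1 at least 2 CCAAT boxes. Such a pair of boxes was found for 12.91% of all genes and in 10.75% of all windows. This cut at 2 boxes was not among the planned motifs. These letter matches describe the windows, and no match in a window does not speak for or against binding of a factor.

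Of the 7 kinases, 2 fell in HMLE-Twist cells (AURKA and NEK2) and 1 in HMLE-pBp cells (PLK1). NEK2, which separates the centrosomes before mitosis, had 16.8, 16.7 and 15.4 FPKM in HMLE-Twist salinomycin libraries against 23.1, 22.0 and 17.2 FPKM in HMLE-Twist mock libraries. The lowest mock library, replicate 3, stood just above the highest salinomycin library, and the log2 fold change was -0.32 ± 0.11 (adjusted p = 0.0443). In HMLE-pBp cells NEK2 had 13.8, 16.3 and 14.9 FPKM with salinomycin against 14.7, 15.9 and 13.97 FPKM with mock, with overlapping groups (0.01 ± 0.11, adjusted p = 0.957). AURKA, the Aurora kinase of the spindle poles, had 52.9, 46.3 and 46.8 FPKM in HMLE-Twist salinomycin libraries against 70.4, 55.1 and 57.0 FPKM in HMLE-Twist mock libraries. Mock replicate 1 was the highest, the groups did not overlap, and AURKA fell by 0.31 ± 0.10 on the log2 scale (adjusted p = 0.0314). With 35.96, 38.7 and 37.9 FPKM in HMLE-pBp salinomycin libraries against 39.6, 42.3 and 40.0 FPKM in HMLE-pBp mock libraries, its groups did not overlap there either, but the change of -0.11 ± 0.10 did not pass (adjusted p = 0.433).

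PLK1, which drives entry into mitosis and many steps after it, had 70.6, 61.7 and 64.0 FPKM in HMLE-Twist salinomycin libraries against 78.8, 78.6 and 77.5 FPKM in HMLE-Twist mock libraries. These groups did not overlap, yet the log2 fold change of -0.26 ± 0.09 missed the threshold (adjusted p = 0.0634). In HMLE-pBp cells PLK1 had 52.4, 64.9 and 67.5 FPKM with salinomycin against 80.7, 75.4 and 73.9 FPKM with mock and fell by 0.32 ± 0.09 (adjusted p = 0.0358). Its responses in the lines differed by 0.06 ± 0.13 on the log2 scale (adjusted p = 0.784). AURKB in HMLE-pBp cells had 33.8, 45.1 and 43.2 FPKM with salinomycin, where replicate 1 stood low, against 45.3, 42.3 and 43.4 FPKM with mock (-0.11 ± 0.10, adjusted p = 0.477). MELK, a kinase expressed in dividing progenitor cells, had means of 47.4 ± 3.37 and 55.1 ± 6.89 FPKM (SD, n = 3) in HMLE-Twist salinomycin and mock libraries, and 46.2 ± 4.82 and 39.3 ± 3.21 FPKM in HMLE-pBp salinomycin and mock libraries. Neither response of MELK passed, at log2 fold changes of -0.21 ± 0.11 and 0.23 ± 0.11. With the block both did, in opposite directions, at adjusted p = 0.0345 in HMLE-Twist and 0.0263 in HMLE-pBp, and so did their difference at 0.00945. The checkpoint kinases BUB1B (-0.27 ± 0.10) and TTK (-0.17 ± 0.09) did not pass in HMLE-Twist cells, and BUB1B did with the block (adjusted p = 0.0155).

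With 1 library left out at a time, the NEK2 call held without HMLE-Twist mock replicate 3 or HMLE-pBp salinomycin replicate 1 and ended without each of the other 10, at up to adjusted p = 0.147. That of AURKA ended without HMLE-Twist salinomycin replicate 2 or 3 or mock replicate 1, at up to 0.111, and that of PLK1 without HMLE-Twist salinomycin replicate 3, HMLE-pBp salinomycin replicate 1 or any HMLE-pBp mock library, at up to 0.113.

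Of the 4 genes of mitotic entry and transcription, CDCA3, CDC25C and FOXM1 fell in HMLE-Twist cells. CDCA3, which helps to degrade the CDK1 inhibitor WEE1, had 21.5, 20.1 and 21.0 FPKM in HMLE-Twist salinomycin libraries against 29.1, 31.3 and 30.2 FPKM in HMLE-Twist mock libraries (-0.51 ± 0.07, adjusted p = 0.000454). It fell in HMLE-pBp cells as well, to 16.9, 18.2 and 18.6 FPKM with salinomycin against 22.8, 23.0 and 20.6 FPKM with mock (-0.29 ± 0.07, adjusted p = 0.0181), and the groups overlapped in neither line. CDC25C, a phosphatase that activates CDK1, had 7.86, 8.44 and 7.90 FPKM in HMLE-Twist salinomycin libraries against 11.2, 13.8 and 10.4 FPKM in HMLE-Twist mock libraries. In HMLE-pBp cells the order of the groups was the opposite, with 13.3, 12.4 and 12.1 FPKM with salinomycin against 11.3, 11.7 and 10.3 FPKM with mock, and no overlap in either line. The fall in HMLE-Twist passed (-0.49 ± 0.10, adjusted p = 0.00329), the change of 0.17 ± 0.10 in HMLE-pBp did not (adjusted p = 0.241), and the difference of -0.66 ± 0.14 between them passed (adjusted p = 0.0108).

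FOXM1, the transcription factor of late cell cycle genes, had 80.4, 75.6 and 71.9 FPKM in HMLE-Twist salinomycin libraries against 98.8, 95.3 and 85.7 FPKM in HMLE-Twist mock libraries. The HMLE-pBp libraries had 53.8, 52.5 and 46.5 FPKM with salinomycin against 65.6, 60.3 and 55.1 FPKM with mock, and the groups did not overlap in either line. The log2 fold changes were -0.29 ± 0.09 in HMLE-Twist (adjusted p = 0.0319) and -0.24 ± 0.09 in HMLE-pBp (adjusted p = 0.0847, or 0.0112 with the block). CDC25B, the phosphatase that starts CDK1 activation, had 43.5, 42.9 and 40.9 FPKM in HMLE-Twist salinomycin libraries against 41.0, 47.4 and 43.8 FPKM in HMLE-Twist mock libraries, with overlapping groups (-0.05 ± 0.09, adjusted p = 0.708). HMLE-pBp cells had 21.6, 21.5 and 21.4 FPKM of CDC25B with salinomycin against 26.0, 23.2 and 20.9 FPKM with mock, and these overlapped too (-0.11 ± 0.09, adjusted p = 0.404). The FOXM1 call ended without HMLE-Twist salinomycin replicate 2 or 3 or HMLE-Twist mock replicate 1 or 2, at up to adjusted p = 0.126, and that of CDCA3 in HMLE-pBp without HMLE-pBp salinomycin replicate 1 or mock replicate 1 or 2, at up to 0.076.

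Neither of the checkpoint genes passed in either line. MAD2L1, which blocks CDC20 until kinetochores are attached, had 68.6, 67.8 and 63.3 FPKM in HMLE-Twist salinomycin libraries against 82.9, 79.4 and 74.5 FPKM in HMLE-Twist mock libraries, with no overlap. In HMLE-pBp cells it had 68.9, 66.8 and 59.1 FPKM with salinomycin against 83.7, 69.1 and 69.0 FPKM with mock. The log2 fold changes were -0.24 ± 0.09 (adjusted p = 0.0726, or 0.0148 with the block) and -0.18 ± 0.09 (adjusted p = 0.183). BUB3, which brings BUB1 and BUBR1 to kinetochores, had the highest log2 fold change in HMLE-Twist cells, 0.06 ± 0.07 (adjusted p = 0.586). Its values were 87.0, 81.4 and 80.2 FPKM with salinomycin against 85.6, 76.6 and 76.1 FPKM with mock in HMLE-Twist, and 82.1, 84.9 and 80.9 FPKM with salinomycin against 68.8, 76.6 and 72.5 FPKM with mock in HMLE-pBp. The HMLE-pBp groups did not overlap, and that change of 0.18 ± 0.07 passed with the block within each line (adjusted p = 0.0323, against 0.0959 without it). The length recovered for BUB3 was 2.03 times the nearest reference length, which bears on its level.

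At the centromere and kinetochore, 3 of 5 genes fell in HMLE-Twist cells (NDC80, NUF2 and CENPA) and 2 in HMLE-pBp cells (CENPA and CENPE). NDC80, the kinetochore subunit that grips the microtubule, had 34.5, 37.2 and 32.3 FPKM in HMLE-Twist salinomycin libraries against 56.9, 52.8 and 46.6 FPKM in HMLE-Twist mock libraries. The groups were far apart (-0.57 ± 0.09, adjusted p = 0.00104), whereas in HMLE-pBp cells 28.0, 32.2 and 28.3 FPKM with salinomycin overlapped 30.1, 33.3 and 30.2 FPKM with mock (-0.08 ± 0.09, adjusted p = 0.576). The difference of -0.49 ± 0.13 passed (adjusted p = 0.0316). NUF2, the partner of NDC80 in the same complex, had 28.6, 29.5 and 28.7 FPKM in HMLE-Twist salinomycin libraries against 41.6, 35.8 and 32.6 FPKM in HMLE-Twist mock libraries, again without overlap (-0.32 ± 0.09, adjusted p = 0.022). In HMLE-pBp cells NUF2 had 23.1, 24.9 and 23.9 FPKM with salinomycin against 23.5, 27.4 and 24.1 FPKM with mock, with overlap (-0.06 ± 0.09, adjusted p = 0.705).

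CENPA, the histone that marks the centromere, fell in both lines, with 18.9, 18.2 and 17.3 FPKM in HMLE-Twist salinomycin libraries against 25.7, 21.3 and 21.3 FPKM in HMLE-Twist mock libraries (-0.31 ± 0.10, adjusted p = 0.0342). HMLE-pBp cells had 13.9, 15.6 and 15.5 FPKM of CENPA with salinomycin against 20.4, 20.8 and 17.4 FPKM with mock (-0.36 ± 0.10, adjusted p = 0.0236). CENPE, the kinetochore motor that brings chromosomes to the spindle equator, had 14.6, 15.6 and 14.7 FPKM in HMLE-Twist salinomycin libraries against 21.6, 20.9 and 16.2 FPKM in HMLE-Twist mock libraries (-0.36 ± 0.14, adjusted p = 0.079, or 0.0117 with the block). In HMLE-pBp cells it fell, with 12.7, 19.0 and 16.1 FPKM with salinomycin against 19.9, 24.3 and 21.5 FPKM with mock (-0.44 ± 0.14, adjusted p = 0.0441). Both lines thus had all 3 salinomycin libraries below all 3 mock libraries for CENPA and CENPE, and the responses of CENPE differed by 0.09 ± 0.20 (adjusted p = 0.785). CENPF, a large protein of the outer kinetochore, had 12.9, 12.3 and 11.9 FPKM in HMLE-Twist salinomycin libraries against 17.2, 13.2 and 11.8 FPKM in HMLE-Twist mock libraries, with overlap, and 14.7, 20.5 and 20.1 FPKM against 20.9, 25.2 and 22.6 FPKM in HMLE-pBp salinomycin and mock libraries, without. Its log2 fold changes were -0.15 ± 0.14 (adjusted p = 0.474) and -0.31 ± 0.14 (adjusted p = 0.15, or 0.029 with the block).

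The NUF2 call ended without any 1 of the HMLE-Twist salinomycin libraries, at up to adjusted p = 0.072, and that of CENPA in HMLE-Twist without any of these or without HMLE-Twist mock replicate 1, at up to 0.124. In HMLE-pBp the CENPA call ended without salinomycin replicate 1 or mock replicate 1 or 2, at up to 0.0932, and the CENPE call held without HMLE-Twist mock replicate 1 or 3 or HMLE-pBp salinomycin replicate 2 and ended without each of the other 9 libraries, at up to 0.162.

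Of the chromosomal passenger complex, CDCA8 and BIRC5 fell in HMLE-Twist cells and did not pass in HMLE-pBp cells, while its kinase AURKB, described with the kinases, passed in neither. CDCA8, which encodes borealin, had 32.9, 29.4 and 29.3 FPKM in HMLE-Twist salinomycin libraries against 45.8, 39.7 and 38.1 FPKM in HMLE-Twist mock libraries (-0.42 ± 0.09, adjusted p = 0.00521). CDCA8 in HMLE-pBp cells had 26.3, 29.8 and 26.9 FPKM with salinomycin against 30.8, 29.7 and 27.2 FPKM with mock, with overlap (-0.08 ± 0.09, adjusted p = 0.578). BIRC5, which encodes survivin, had 86.6, 85.3 and 83.8 FPKM in HMLE-Twist salinomycin libraries against 97.96, 104 and 99.8 FPKM in HMLE-Twist mock libraries (-0.24 ± 0.07, adjusted p = 0.0265). HMLE-pBp cells had less of it, 42.8, 44.9 and 48.1 FPKM with salinomycin against 52.5, 48.2 and 47.2 FPKM with mock, and the groups overlapped (-0.12 ± 0.07, adjusted p = 0.245). The difference of responses was -0.34 ± 0.13 for CDCA8 (adjusted p = 0.0958, or 0.0245 with the block) and -0.12 ± 0.10 for BIRC5 (adjusted p = 0.445). The BIRC5 call ended without any 1 of the HMLE-Twist salinomycin libraries or HMLE-Twist mock replicate 2, at up to adjusted p = 0.0956.

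Among the 5 kinesins, KIF20A, KIF11 and KIF23 fell in HMLE-Twist cells and 0 passed in HMLE-pBp cells. KIF20A had 38.8, 48.0 and 48.7 FPKM in HMLE-pBp salinomycin libraries against 54.1, 57.0 and 51.0 FPKM in HMLE-pBp mock libraries, without overlap (-0.26 ± 0.10, adjusted p = 0.0936, or 0.0395 with the block). KIF11, the motor that pushes the spindle poles apart, had 40.7, 39.8 and 35.9 FPKM in HMLE-Twist salinomycin libraries against 63.9, 49.8 and 42.4 FPKM in HMLE-Twist mock libraries, which spread widely. It fell there by 0.40 ± 0.13 (adjusted p = 0.0456), while HMLE-pBp cells had 27.5, 34.0 and 27.8 FPKM with salinomycin against 28.9, 28.1 and 25.8 FPKM with mock, with overlap (0.10 ± 0.13, adjusted p = 0.629). KIF23, a motor of the central spindle in cell division, had 34.1, 32.9 and 31.0 FPKM in HMLE-Twist salinomycin libraries against 49.1, 39.2 and 37.0 FPKM in HMLE-Twist mock libraries (-0.33 ± 0.11, adjusted p = 0.0392). In HMLE-pBp cells KIF23 had 31.8, 38.5 and 32.7 FPKM with salinomycin against 35.3, 38.6 and 35.3 FPKM with mock, with overlap (-0.09 ± 0.11, adjusted p = 0.611).

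KIF14, a kinesin of cytokinesis, had the smallest changes of the 5 kinesins in both lines. It had 11.3, 10.0 and 9.26 FPKM in HMLE-Twist salinomycin libraries against 14.2, 10.5 and 7.83 FPKM in HMLE-Twist mock libraries, where mock replicate 1 was above and mock replicate 3 below all salinomycin libraries (-0.05 ± 0.16, adjusted p = 0.866). HMLE-pBp cells had 11.4, 13.6 and 12.3 FPKM of KIF14 with salinomycin against 12.8, 13.2 and 10.9 FPKM with mock (0.02 ± 0.16, adjusted p = 0.957). KIF2C, which takes microtubules apart at the centromere, had 41.9, 41.8 and 39.9 FPKM in HMLE-Twist salinomycin libraries against 46.7, 50.6 and 46.2 FPKM in HMLE-Twist mock libraries, and its change of -0.21 ± 0.08 did not pass (adjusted p = 0.0688, or 0.0211 with the block). The KIF11 call held without HMLE-Twist mock replicate 3 or HMLE-pBp salinomycin replicate 1 or 2 and ended without each of the other 9 libraries, at up to adjusted p = 0.153. The KIF23 call held without HMLE-Twist mock replicate 3 or any 1 HMLE-pBp salinomycin library and ended without each of the other 8, at up to 0.133.

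The spindle and microtubule proteins had the lowest median of the roles with at least 2 tested genes in HMLE-Twist cells, -0.51, with 4 of 5 genes lower, and 0 of 5 passed in HMLE-pBp cells. DLGAP5, which stabilises the microtubules of the spindle, had 32.6, 33.1 and 33.0 FPKM in HMLE-Twist salinomycin libraries against 51.5, 55.0 and 43.5 FPKM in HMLE-Twist mock libraries (-0.58 ± 0.10, adjusted p = 0.00173). In HMLE-pBp cells it had 37.1, 46.2 and 41.4 FPKM with salinomycin against 44.4, 52.6 and 46.6 FPKM with mock, with overlap (-0.20 ± 0.10, adjusted p = 0.192). NUSAP1, which binds microtubules near chromosomes, had 49.1, 53.1 and 46.9 FPKM in HMLE-Twist salinomycin libraries against 74.4, 78.1 and 64.4 FPKM in HMLE-Twist mock libraries (-0.53 ± 0.09, adjusted p = 0.00156). HMLE-pBp cells had 42.4, 48.5 and 44.7 FPKM of NUSAP1 with salinomycin against 46.6, 49.0 and 42.3 FPKM with mock, with overlap (-0.02 ± 0.09, adjusted p = 0.887), and the difference of -0.51 ± 0.13 passed (adjusted p = 0.0266).

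HMMR, a hyaluronan receptor that also sits on the spindle, had 36.4, 37.2 and 34.3 FPKM in HMLE-Twist salinomycin libraries against 58.9, 52.9 and 44.1 FPKM in HMLE-Twist mock libraries (-0.51 ± 0.12, adjusted p = 0.00954). HMLE-pBp cells had more of it, 64.8, 85.0 and 77.6 FPKM with salinomycin against 79.2, 98.2 and 87.3 FPKM with mock, and these groups overlapped (-0.22 ± 0.12, adjusted p = 0.231, or 0.041 with the block). PRC1, which bundles the microtubules of the central spindle, had 76.3, 79.0 and 75.5 FPKM in HMLE-Twist salinomycin libraries against 103, 103 and 94.1 FPKM in HMLE-Twist mock libraries (-0.37 ± 0.07, adjusted p = 0.00227). In HMLE-pBp cells PRC1 had 63.7, 70.3 and 64.3 FPKM with salinomycin against 67.6, 70.2 and 64.7 FPKM with mock, with overlap, and the difference of -0.34 ± 0.10 passed (adjusted p = 0.041). TPX2, which activates AURKA on the spindle, had 83.5, 79.2 and 76.1 FPKM in HMLE-Twist salinomycin libraries against 112, 96.8 and 84.4 FPKM in HMLE-Twist mock libraries (-0.29 ± 0.10, adjusted p = 0.0608, or 0.0148 with the block). HMLE-pBp cells had 79.2, 85.97 and 80.7 FPKM of TPX2 with salinomycin against 86.3, 86.1 and 73.3 FPKM with mock, a log2 fold change of 0.00 ± 0.10 (adjusted p = 0.987).

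In anaphase and its ubiquitin pathway, CDC20 and PTTG1 fell in HMLE-Twist cells, and CDC20 and ESPL1 in HMLE-pBp cells. CDC20 had 105, 125 and 123 FPKM in HMLE-pBp salinomycin libraries against 151, 155 and 151 FPKM in HMLE-pBp mock libraries, with no overlap (-0.37 ± 0.08, adjusted p = 0.00867), and its responses in the lines differed by -0.12 ± 0.11 (adjusted p = 0.505). PTTG1, which encodes securin, the inhibitor of separase, had 67.9, 70.9 and 64.7 FPKM in HMLE-Twist salinomycin libraries against 95.6, 109 and 95.8 FPKM in HMLE-Twist mock libraries (-0.55 ± 0.08, adjusted p = 0.000329). PTTG1 in HMLE-pBp cells had 111, 105 and 106 FPKM with salinomycin against 133, 127 and 117 FPKM with mock, also without overlap (-0.22 ± 0.08, adjusted p = 0.0635, or 0.0194 with the block). PTTG1 has near-identical intronless copies elsewhere in the genome, so its values are uncertain. ESPL1, which encodes separase, the protease that parts the sister chromatids, had 9.44, 9.24 and 9.54 FPKM in HMLE-Twist salinomycin libraries against 9.42, 10.95 and 10.3 FPKM in HMLE-Twist mock libraries, with overlap (-0.11 ± 0.14, adjusted p = 0.638). It fell in HMLE-pBp cells, with 8.64, 14.4 and 13.3 FPKM with salinomycin against 15.99, 18.4 and 16.3 FPKM with mock (-0.48 ± 0.14, adjusted p = 0.0388), where salinomycin replicate 1 stood far below the other two. The difference of 0.37 ± 0.20 did not pass (adjusted p = 0.238). UBE2C, the ubiquitin-conjugating enzyme of the anaphase-promoting complex, had 66.7, 66.9 and 73.5 FPKM in HMLE-Twist salinomycin libraries against 61.9, 75.4 and 79.0 FPKM in HMLE-Twist mock libraries, and 43.7, 54.9 and 56.9 FPKM against 52.1, 52.4 and 51.3 FPKM in HMLE-pBp salinomycin and mock libraries. Both pairs of groups overlapped, at log2 fold changes of -0.06 ± 0.11 and -0.01 ± 0.11. The ESPL1 call held without HMLE-Twist mock replicate 1 or 3 or HMLE-pBp salinomycin replicate 2 or 3 and ended without each of the other 8 libraries, at up to adjusted p = 0.13.

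TOP2A, the topoisomerase that untangles chromosomes, had 96.6, 111 and 93.2 FPKM in HMLE-Twist salinomycin libraries against 144, 141 and 111 FPKM in HMLE-Twist mock libraries. Mock replicate 3 lay just above salinomycin replicate 2, and the log2 fold change was -0.39 ± 0.13 (adjusted p = 0.0456). HMLE-pBp cells had 69.8, 95.6 and 79.9 FPKM with salinomycin against 78.4, 93.1 and 81.6 FPKM with mock, with overlap (-0.05 ± 0.13, adjusted p = 0.813). The TOP2A call in HMLE-Twist held without HMLE-Twist salinomycin replicate 2, HMLE-Twist mock replicate 3 or HMLE-pBp salinomycin replicate 1 or 2 and ended without each of the other 8 libraries, at up to adjusted p = 0.151. NCAPG could be compared only between the lines. It had 3544, 3396 and 3395 normalized reads in HMLE-Twist salinomycin libraries against 2271, 3244 and 2574 in HMLE-pBp salinomycin libraries. The mock libraries had 52.0, 46.75 and 43.4 FPKM of NCAPG in HMLE-Twist against 26.7, 30.3 and 27.0 FPKM in HMLE-pBp, so HMLE-Twist was above HMLE-pBp in all libraries of both treatments.

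CEP55 was the gene of the 36 whose responses passed in opposite directions. It had 64.5, 69.2 and 71.0 FPKM in HMLE-Twist salinomycin libraries against 95.8, 90.9 and 88.4 FPKM in HMLE-Twist mock libraries, a log2 fold change of -0.42 ± 0.07 (adjusted p = 0.000913). In HMLE-pBp cells it rose, with 48.6, 50.4 and 48.0 FPKM with salinomycin against 39.9, 42.3 and 42.9 FPKM with mock (0.23 ± 0.07, adjusted p = 0.0357). The groups overlapped in neither line, and the difference of -0.65 ± 0.10 passed (adjusted p = 0.00184) under all alternatives that were run. The rise in HMLE-pBp ended without HMLE-Twist salinomycin replicate 2 or 3, HMLE-pBp salinomycin replicate 1 or 2 or any HMLE-pBp mock library, at up to adjusted p = 0.104, and under TPM.

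Over all 36 genes, the response of HMLE-pBp cells had 6 genes lower and 1 higher, where 9.39% of all tested genes passed as lower and 9.73% as higher. The median log2 fold change was -0.10, against -0.01 over all genes tested, with 27 negative and 9 positive values. In 12 genes all 3 salinomycin libraries lay below all 3 mock libraries and in 3 (BUB3, CDC25C and CEP55) above, against 21.2% and 20.3% of all tested genes. With the block within each line, 11 genes passed as lower and 3 as higher (19.3% and 17.4% of all genes). Without the block, CDC20, CDCA3 and CENPA fell in both lines (2.12% of all genes). A further 17 genes passed as lower in HMLE-Twist and did not pass in HMLE-pBp (10.9%). Of these 17, only CDC25C, NDC80, NUSAP1 and PRC1 passed the test of the difference between the lines. CENPE, ESPL1 and PLK1 fell in HMLE-pBp and did not pass in HMLE-Twist (6.67%). With the block, FOXM1, HMMR, KIF20A and PTTG1 of the 17 genes passed as lower in HMLE-pBp too, and CENPE as lower in HMLE-Twist. The number of lower genes in HMLE-pBp was 1 without HMLE-pBp salinomycin replicate 1, HMLE-pBp mock replicate 1 or HMLE-pBp mock replicate 2 (4.63%, 7.04% and 4.88% of all genes), and 3 without HMLE-pBp mock replicate 3 (3.89%) or HMLE-Twist salinomycin replicate 3 (7.83%). CDC20 was the 1 gene called in HMLE-pBp under all alternatives.

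Whether the lines responded differently was tested as the difference of their responses. It passed for 5 genes, CDC25C, CEP55, NDC80, NUSAP1 and PRC1, all with the lower value in HMLE-Twist cells, where 6.64% of all tested genes passed in that direction, and for 0 genes in the other direction (6.98%), as with voom and at an unadjusted p under 0.05. Of the 36 genes, 29 had a more negative response in HMLE-Twist than in HMLE-pBp, and the median difference was -0.23, against 0.00 over all genes tested. With the block, 13 genes passed (15.5% of all genes), the further 8 being CDCA8, DLGAP5, KIF11, KIF20A, MELK, NEK2, PTTG1 and TOP2A. CDC25C and CEP55 passed under all alternatives that were run. The call of NDC80 ended without HMLE-Twist salinomycin replicate 1 or 3, HMLE-Twist mock replicate 2, HMLE-pBp salinomycin replicate 2 or HMLE-pBp mock replicate 1 or 3 (up to adjusted p = 0.0921), that of NUSAP1 without the same libraries other than HMLE-pBp mock replicate 1 (up to 0.0785), and that of PRC1 held without HMLE-Twist mock replicate 1 or 3 or HMLE-pBp salinomycin replicate 3 and ended without each of the other 9 libraries (up to 0.108). All 3 of these calls ended under TPM, and that of PRC1 with voom. The count of 5 was 11 without HMLE-Twist mock replicate 3 (10.1% of all genes), 3 without HMLE-pBp mock replicate 1 (5.58%), and, with 2.92% to 3.8% of all genes, 2 without HMLE-Twist salinomycin replicate 1 or 3, HMLE-Twist mock replicate 2, HMLE-pBp salinomycin replicate 2 or HMLE-pBp mock replicate 3.

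**Figure D3:**
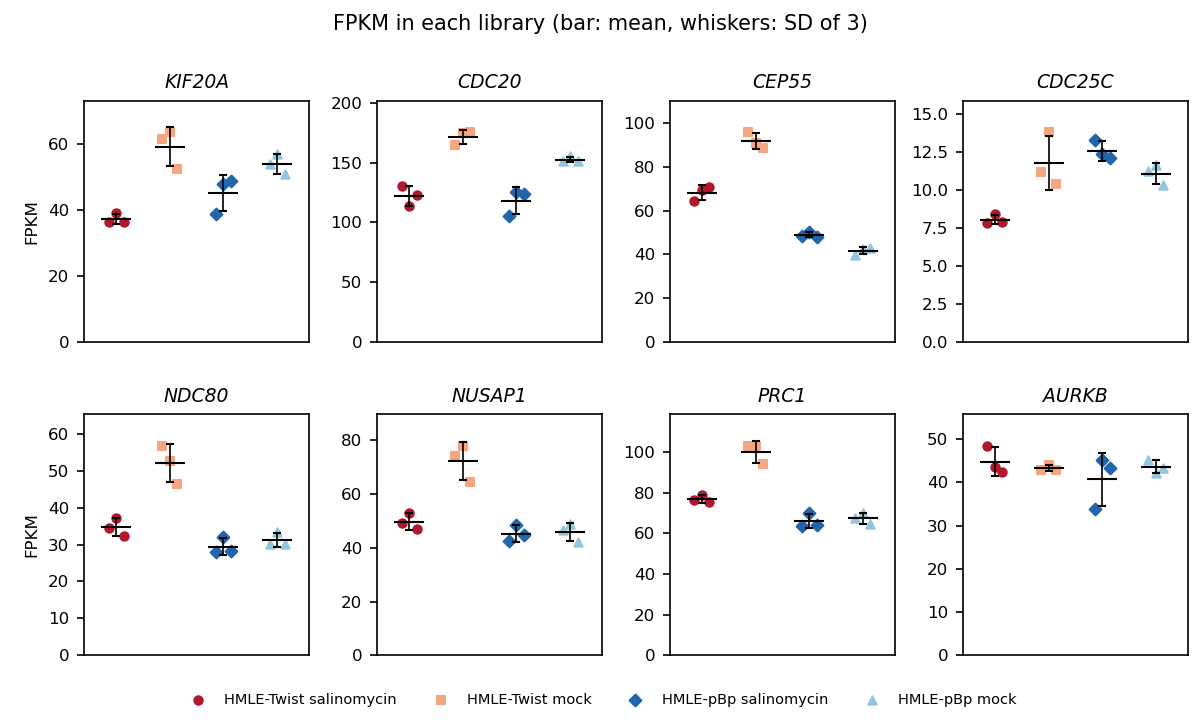
FPKM (y, from 0) of 8 genes in each of the 12 libraries; points are libraries, the bar is the mean of 3 and the whiskers their SD, in the order HMLE-Twist salinomycin, HMLE-Twist mock, HMLE-pBp salinomycin and HMLE-pBp mock. For CDC25C, CEP55, NDC80, NUSAP1 and PRC1, whose difference of responses passed, the HMLE-Twist salinomycin points lie below the mock points, while in HMLE-pBp those of CEP55 and CDC25C lie above the mock points and the other 3 genes overlap; CDC20 is lower with salinomycin in both lines and AURKB overlaps in both.

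The lines themselves differed in the levels of these genes before any salinomycin. Under mock, 19 of the 36 genes were higher and 4 lower in HMLE-Twist than in HMLE-pBp cells, where 36.2% of all tested genes passed as higher and 37.2% as lower. The median log2 fold change was 0.26, against 0.00 over all genes tested. The mock comparison shares the HMLE-Twist mock libraries with the response of HMLE-Twist and the HMLE-pBp mock libraries with that of HMLE-pBp. CEP55 had the largest value, with means of 91.7 ± 3.76 FPKM in HMLE-Twist mock and 41.7 ± 1.60 FPKM in HMLE-pBp mock libraries (SD, n = 3; 1.12 ± 0.07, adjusted p = 1.69e-08). It was followed by BIRC5 (1.02 ± 0.07), CDC25B (0.89 ± 0.09), KIF11 (0.87 ± 0.13) and TTK (0.86 ± 0.09), and their groups did not overlap. Lower in HMLE-Twist were HMMR, with 52.0 ± 7.44 FPKM in HMLE-Twist mock and 88.2 ± 9.52 FPKM in HMLE-pBp mock libraries (-0.76 ± 0.12, adjusted p = 0.000134), CENPF (-0.68 ± 0.14), ESPL1 (-0.67 ± 0.14) and PTTG1 (-0.33 ± 0.08). TPX2 passed at adjusted p = 0.0461 with overlapping groups, and its call held without HMLE-Twist mock replicate 3 or HMLE-pBp mock replicate 1 and ended without each of the other 10 libraries, at up to 0.186. The other 22 calls held under all alternatives that were run.

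Under salinomycin, 12 genes were higher and 6 lower in HMLE-Twist than in HMLE-pBp cells (31.5% and 32.1% of all tested genes), with a median of 0.13 against 0.01. CDC25B led (42.4 ± 1.35 FPKM in HMLE-Twist and 21.5 ± 0.0758 FPKM in HMLE-pBp salinomycin libraries; 0.95 ± 0.09, adjusted p = 1e-06), with BIRC5 (0.90 ± 0.07) and FOXM1 (0.57 ± 0.09) next. CDC25C, DLGAP5 and KIF20A were lower in HMLE-Twist at log2 fold changes of -0.58 ± 0.10, -0.32 ± 0.10 and -0.27 ± 0.10 (adjusted p = 0.000222, 0.0173 and 0.037), where under mock they stood at 0.08 ± 0.10, 0.06 ± 0.10 and 0.13 ± 0.10. PTTG1 (-0.66 ± 0.08) and HMMR (-1.05 ± 0.12) were lower under both treatments. In all, 14 genes passed under both treatments (55.9% of all genes), 9 under mock alone (17.5%), 4 (CDC25C, CENPA, DLGAP5 and KIF20A) under salinomycin alone (7.6%) and 9 under neither (19%). Of the calls under salinomycin, 11 held under all alternatives. The call of KIF20A ended without any 1 of the HMLE-Twist salinomycin libraries or without HMLE-pBp salinomycin replicate 2 or 3 (up to adjusted p = 0.129), under TPM and under upper-quartile scaling, and its groups overlapped. The call of DLGAP5 ended without HMLE-Twist salinomycin replicate 1 or HMLE-pBp salinomycin replicate 2 (up to 0.081), and that of CENPA without HMLE-Twist salinomycin replicate 1 or 2 or HMLE-pBp salinomycin replicate 1 (up to 0.0961).

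**Figure D4:**
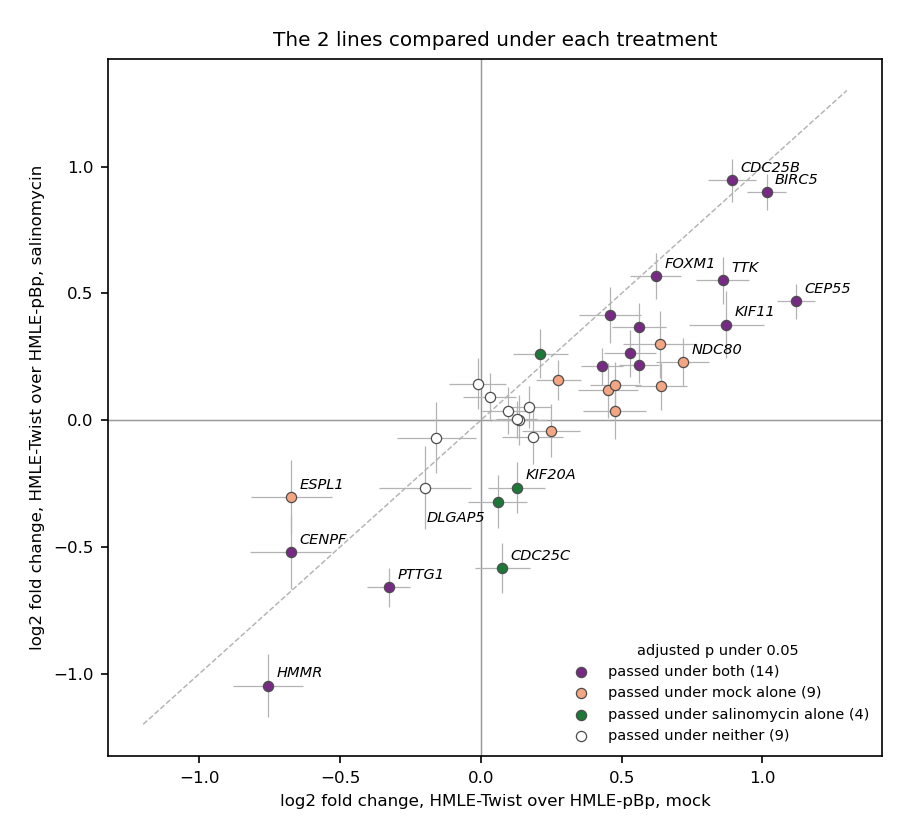
Log2 fold change of HMLE-Twist over HMLE-pBp under mock (x) against that under salinomycin (y) for the 36 genes; bars are SE, the dashed line marks equal values and colours give which test passed. The 14 genes that passed under both treatments lie on the same side of 0 in both, and CDC25C, DLGAP5 and KIF20A lie near 0 under mock and below 0 under salinomycin.

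Single libraries moved many of these genes together within a group, but not all. Deviations from the group mean correlated at a median of 0.44 over pairs of genes, with 84.6% of pairs above 0. Correlation with the mean of the other genes ran from -0.098 (UBE2C) to 0.957 (NEK2). It was 0.245 for both CDC25C and CEP55. The mean of log2(FPKM + 1) over the 36 genes was 5.33, 5.32 and 5.26 in the HMLE-Twist salinomycin libraries against 5.71, 5.65 and 5.50 in the HMLE-Twist mock libraries. It was 5.12, 5.33 and 5.22 in the HMLE-pBp salinomycin libraries against 5.34, 5.39 and 5.27 in the HMLE-pBp mock libraries. In HMLE-Twist mock replicate 1, 26 of the 36 genes lay above their group mean, and in replicate 3 of that group 4 did; in both, KIF14 deviated most, by 0.39 and -0.39 on the log2 scale. In HMLE-pBp salinomycin replicate 1, 6 genes lay above the group mean, against 33 in replicate 2, and ESPL1 deviated most, by -0.41 and 0.26. The median coefficient of variation over the genes was 4.63% in HMLE-Twist salinomycin, 9.94% in HMLE-Twist mock, 8.204% in HMLE-pBp salinomycin and 6.31% in HMLE-pBp mock libraries.

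Taking the replicates by their numbers, salinomycin minus mock was negative for 31, 35 and 33 of the 36 genes in replicates 1, 2 and 3 of HMLE-Twist, with medians of -0.42, -0.30 and -0.25. In HMLE-pBp it was negative for 31, 23 and 23 genes, with medians of -0.23, -0.05 and -0.03, and the lowest of these medians was in replicate 1. All 3 HMLE-Twist pairs were negative for 29 genes, against 33.4% of all tested genes, and the exceptions were AURKB, BUB3, CDC25B, CENPF, ESPL1, KIF14 and UBE2C. In HMLE-pBp, 19 genes were negative in all 3 pairs (35.9% of all tested genes) and 5 positive (BUB3, CDC25C, CEP55, MELK and TTK; 32.7%).

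**Figure D5:**
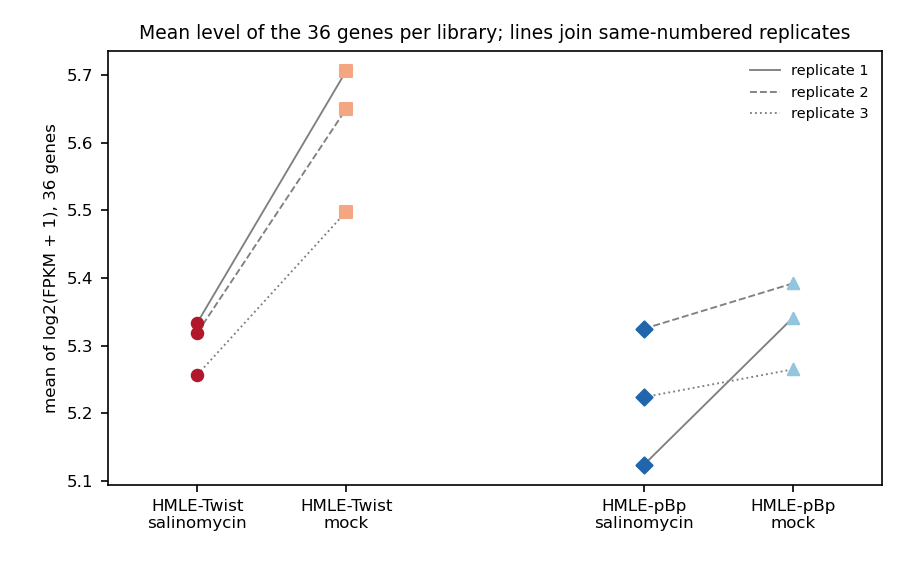
Mean of log2(FPKM + 1) over the 36 genes (y) in each of the 12 libraries, by group (x); lines join the salinomycin and mock libraries with the same replicate number. All 3 HMLE-Twist pairs lie lower with salinomycin, by more than any difference between the 3 salinomycin libraries, while in HMLE-pBp the line of replicate 1 is the steepest.

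Other genes of the same machinery were counted in 5 lists (kinetochore and centromere, cohesin and condensin, anaphase-promoting complex, spindle with kinesins and cytokinesis, checkpoint with entry and DREAM-MuvB). Of their 108 tested genes, 34 were lower and 4 higher in HMLE-Twist with salinomycin than with mock, with a median log2 fold change of -0.19, and 6 were lower and 6 higher in HMLE-pBp (median -0.04). The shares of all tested genes were 13.6% lower and 12.8% higher in HMLE-Twist, and 9.39% and 9.73% in HMLE-pBp. By list, 13 of 31 kinetochore genes, 8 of 20 spindle genes, 5 of 20 cohesin and condensin genes, 6 of 20 checkpoint and entry genes and 2 of 17 genes of the anaphase-promoting complex were lower in HMLE-Twist. ZWINT, a scaffold of the outer kinetochore, fell to 89.0 FPKM on average with salinomycin against 153 FPKM with mock in HMLE-Twist (-0.78 ± 0.07, adjusted p = 2.82e-05), and SKA2, which helps kinetochores hold microtubules, by 0.69 ± 0.11 (adjusted p = 0.00109). CDK1, the master kinase of mitosis, fell to 46.8 FPKM against 77.5 FPKM (-0.71 ± 0.11, adjusted p = 0.000767), and cyclin A2 (CCNA2) by 0.56 ± 0.10 (adjusted p = 0.00176). ANAPC15, a subunit of the anaphase-promoting complex, rose in both lines, by 0.84 ± 0.14 in HMLE-Twist (adjusted p = 0.00104) and 0.96 ± 0.14 in HMLE-pBp (adjusted p = 0.000815), as did the MuvB subunit LIN37 (0.70 ± 0.10 and 0.55 ± 0.10, adjusted p = 0.000577 and 0.00419). The difference of responses passed as lower for 11 of the 108 genes and as higher for 2 (6.64% and 6.98% of all genes), led by the centromere protein CENPI (-0.95 ± 0.13, adjusted p = 0.00132). Under mock, 65 of the 108 genes were higher and 9 lower in HMLE-Twist (36.2% and 37.2% of all genes), and under salinomycin 43 and 9 (31.5% and 32.1%). BUB1 was not tested, since its reads could not be settled.

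Of 31 genes of DNA replication set beside them, 12 were lower and 0 higher in HMLE-Twist with salinomycin (median -0.18; 13.6% and 12.8% of all genes), and 9 and 0 in HMLE-pBp (median -0.18; 9.39% and 9.73%). The number higher was 0 in both lines with voom and at an unadjusted p under 0.05 as well. The difference of responses was lower for 3 and higher for 0 (6.64% and 6.98% of all genes). Its number higher was 0 with voom and 2 at an unadjusted p under 0.05. The helicase subunit MCM2 fell in HMLE-pBp to 50.4 FPKM on average with salinomycin against 66.5 FPKM with mock (-0.40 ± 0.10, adjusted p = 0.0181). Under mock, 22 of the 31 were higher and 1 lower in HMLE-Twist than in HMLE-pBp (36.2% and 37.2% of all genes), and under salinomycin 21 and 0 (31.5% and 32.1%).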

How the data were processed

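RNA of 12 libraries (4 groups of 3) was sequenced after stranded mRNA library preparation from 750 ng of RNA with 75 cycles per end, per the labels' protocols. DESeq2 (as 1.1.0) and genome build hg19 are named in the submitters' processing notes. Aligner, counter, use of strand in counting and annotation: not given in the sources used here. As FPKM the authors deposited the mock groups, and FPKM is the unit of their values. For the salinomycin groups the authors deposited log2 values shrunk towards each gene's mean, although named as FPKM. The 4 tables, of 26364 genes each, were normalized separately, so they were brought to one scale first.

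In the mock tables each gene's values are whole multiples of 1 step, which gave whole reads and a gene length. For salinomycin, a penalised negative binomial model undid the shrinkage. It left 98.1% of HMLE-Twist values and 95.4% of HMLE-pBp values less than 0.1 from a whole read. Genes whose reads could be off by a multiple, judged by reference lengths (under 0.8 of the shortest transcript or 0.95 of the longest coding sequence), were left out: 795 genes, among them NCAPG and BUB1. Recovered lengths of 25 of the 36 genes tested lay within 5% of a reference length. Exons of 10 of the 37 genes overlap another protein-coding gene (such as KIF20A with CDC23 and BRD8), and reads of such pairs may not be separable.

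FPKM was rebuilt with median-of-ratios size factors over 12 libraries. Genes reaching 1 FPKM in 3 or more libraries entered 1 limma fit (version 3.58.1, R 4.3.3; lmFit, eBayes with trend, Benjamini-Hochberg) of all 4 groups on log2(FPKM + 1), which understates fold changes of low genes. The model was tested on simulated data. Same-numbered salinomycin and mock libraries deviated together over all tested genes. The correlations were 0.45, 0.43 and 0.72 in HMLE-Twist, and 0.53, 0.22 and 0.59 in HMLE-pBp, so the numbers pair the libraries within a line. Between the lines, same-numbered libraries correlated at 0.28, 0.04 and 0.59 with salinomycin and at 0.26, 0.06 and 0.57 with mock. Whether the numbers mark a batch shared by both lines was not tested. The main fit had no block, since the study states none. Values with the replicate number as a block within each line are given where they change the call of a response. For the difference of responses they are given for CDCA8 and MELK, and the other genes that passed with the block are named.

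The genes and lists were chosen with earlier results of these data known. Values in each library are given for the genes with the largest and the smallest change of each role in HMLE-Twist and for those that passed in 1 line or in the difference; CDC20, CENPA and KIF2C were added after their values were seen. At most 3 genes per other list, those with the largest changes, are named. Promoter windows are from RefSeq (GRCh38.p14), matched by symbol. Read totals limit precision only through counting error. Alternatives covered the pseudocount, filters, scaling, blocks, the groups in the fit, voom, gene lengths, genes left out and each library in turn.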

Additional observations from a re-analysis of the deposited data

Results flagged for a closer look

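The responses of 5 genes to salinomycin differed between HMLE-Twist and HMLE-pBp cells by a test of the difference itself (limma, adjusted p under 0.05), given as HMLE-Twist minus HMLE-pBp on the log2 scale. CDC25C differed by -0.66 (adjusted p = 0.0108) and CEP55 by -0.65 (adjusted p = 0.00184), and in both genes all 3 salinomycin libraries lay below the mock libraries in HMLE-Twist and above them in HMLE-pBp. NDC80 differed by -0.49 (adjusted p = 0.0316), NUSAP1 by -0.51 (adjusted p = 0.0266) and PRC1 by -0.34 (adjusted p = 0.041); these 3 fell in HMLE-Twist and their groups overlapped in HMLE-pBp. Groups of 3 libraries were too small to test single libraries as outliers.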

How the results depend on the processing

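No called value of the 36 genes changed direction under any alternative. Counting each call under each alternative, 410 kept their side of the threshold and 73 lost it in the response of HMLE-Twist, 119 and 42 in that of HMLE-pBp, 86 and 24 in the difference of responses, 494 and 12 between the lines under mock, and 371 and 25 under salinomycin. Under TPM, 12 genes were lower in HMLE-Twist (21 as reported), 0 higher in HMLE-pBp (1), and 2 lower in the difference (5). Of all genes tested under TPM, 10.2%, 7.81% and 3.84% passed in these 3 ways. TPM also moved the difference over all genes to 843 higher and 508 lower, against 830 and 790. With no gene left out, NCAPG added 1 higher gene in HMLE-Twist (13.1% of all genes). Its mock FPKM does not depend on the recovered length, but its salinomycin FPKM does. The unsettled length can shift this value, so it is not read as a response. The higher genes of HMLE-pBp were then 2 (9.77%). With only the groups compared in the fit, 3 genes were lower in HMLE-pBp, against 6 (7.43% and 9.39% of all genes). The cause was not tested.

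With the replicate number as a block over all libraries, 2 of the 36 genes were higher in HMLE-pBp and 12 lower in the difference. With the replicate block within each line these counts were 3 and 13, and 11 genes were lower in HMLE-pBp. Under the block over all libraries and that within each line, the 108 other pathway genes had 7 and 7 higher in HMLE-Twist, 14 and 13 higher and 18 and 26 lower in HMLE-pBp, and 6 and 7 higher and 27 and 30 lower in the difference. Replication genes higher in the difference were 4 and 3, and 2 were lower under mock with the block over all libraries. Of all tested genes, the 2 blocks gave 18.6% and 19.7% higher in HMLE-Twist. In HMLE-pBp they gave 16.2% and 17.4% higher and 17.4% and 19.3% lower. In the difference they gave 15% and 16.9% higher and 14% and 15.5% lower. Under mock, the block over all libraries gave 40.3% lower. No other count of the 36, the 108 or the replication genes moved by over 1.5 times under a block.

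For the other pathway genes, the difference had 4 higher with no filter on low values and 5 lower under TPM. For replication genes it had 1 lower under each of these, and 5 were lower in HMLE-pBp with only the groups compared in the fit. Of all genes, 4.07% were higher and 4.02% lower in the difference with no filter, and 3.84% lower under TPM. With only the groups compared, 7.43% were lower in HMLE-pBp.

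Leaving out each library in turn gave 12 to 25 lower genes in HMLE-Twist, 0 to 2 higher and 1 to 7 lower in HMLE-pBp, and 2 to 11 lower in the difference. Between the lines it gave 18 to 21 higher and 4 to 5 lower under mock, and 8 to 14 higher and 4 to 7 lower under salinomycin. The other pathway genes gave 4 to 7 higher and 24 to 42 lower in HMLE-Twist, 5 to 9 higher and 2 to 17 lower in HMLE-pBp, 1 to 5 higher and 4 to 24 lower in the difference, 59 to 66 higher and 8 to 10 lower under mock, and 36 to 47 higher and 8 to 13 lower under salinomycin. Replication genes gave 9 to 13 lower in HMLE-Twist, 1 to 10 lower in HMLE-pBp and 0 to 4 lower in the difference. Under mock they gave 21 to 23 higher and 1 to 2 lower, and under salinomycin 18 to 23 higher. Over all tested genes, 9.74% to 14.4% were higher and 8.84% to 15.1% lower in HMLE-Twist. In HMLE-pBp 5.61% to 13.2% were higher and 3.89% to 13.5% lower. In the difference 3.48% to 9.93% were higher and 2.92% to 10.1% lower. Between the lines, 33.5% to 36.5% were higher and 34.1% to 37.8% lower under mock. Under salinomycin 28% to 34.3% were higher and 28.9% to 33.8% lower.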
